A study of Mytilus galloprovincialis with 16 samples.

Results

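Stage 4, when male mussels spawn, was set against stage 3, when the gonad is ripe, in the mantle of Mytilus galloprovincialis. The data were the 4 dual-colour cDNA microarrays, of 16 in the series, on which RNA of both stages was hybridised to the same slide. All 1920 clones whose names start with Myt were included, and every ratio was turned to stage 4 over stage 3. The stage 4 mussels were sampled in March and the stage 3 mussels in February, from the wild population of the Bizerta lagoon, with no treatment given in the labels, so that stage and sampling month cannot be told apart. Each RNA came from the mantle of a single male. The other 12 arrays compared stage 4 with stage 1 (early development, November), stage 3 with stage 2 (development, January) and stage 2 with stage 1, with 4 arrays each. For Stage3/Stage2 replicate 1 the labels give both February and January for the stage 3 mussel, and it was kept as stage 3, as in its title.

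In mussels the gonad has no organ of its own but grows into the mantle. There, in males, follicles fill with developing germ cells until ripe spermatozoa crowd the tissue, and at spawning the sperm are shed into the water and the follicles begin to empty. A mantle sample therefore holds germ cells, sperm, connective and storage tissue in proportions that shift through the cycle, and in such bulk RNA fewer cells of a type cannot be told apart from less of a transcript per cell. No table used here links a clone to a gene or a sequence, so clones are given by name only, and the labelled tissue could not be checked against marker genes.

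The 4 arrays carried each clone as 2 spots, and the log2 ratios of the duplicate spots correlated across clones at 0.781, 0.86, 0.864 and 0.939 on replicates 1 to 4. Median net intensity (foreground minus local background) of the clone spots was 60, 108, 104 and 191.5 in the stage 4 channel and 48, 110, 131.5 and 171.5 in the stage 3 channel. A clone was taken as well above background when at least 1 of its spots had a foreground over 2 background SDs above the local background median. On each array, 41.1% to 66.2% of the clones passed for stage 4 and 34% to 60.5% for stage 3, against at most 0.493% of the blank spots. Replicate 1 had the dimmest channels and the smallest spread of log2 ratios (SD 0.379 over clones, against 0.516 to 0.661 on the other arrays). Its ratios also correlated least with those of the other arrays, at a mean of 0.683 against 0.775 to 0.781 (correlations over clones, which are no replicates).

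The mantle of spawning mussels differed from that of ripe mussels at many clones, in both directions and mostly by small amounts. Of the 1920 clones, 523 changed (27.2%), of which 254 rose (13.2%) and 269 fell (14%) in stage 4, at a limma adjusted p below 0.05. Ratios had the same sign on all 4 arrays for 521 of the 523 changed clones and for 887 of all 1920 clones (46.2%). The median log2 ratio of the clones that rose was 0.49 (1.40-fold), with quartiles at 0.36 and 0.75, and that of the clones that fell was -0.60 (1.52-fold lower), with quartiles at -0.95 and -0.41. Over all clones the median was -0.01. Changes beyond 1.5-fold were found for 98 clones that rose and 137 that fell, and changes beyond 2-fold for 39 that rose and 58 that fell. The plot of ratios by intensity shows the called clones over nearly the whole range of intensities, and few at its dim end.

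**Figure D1:**
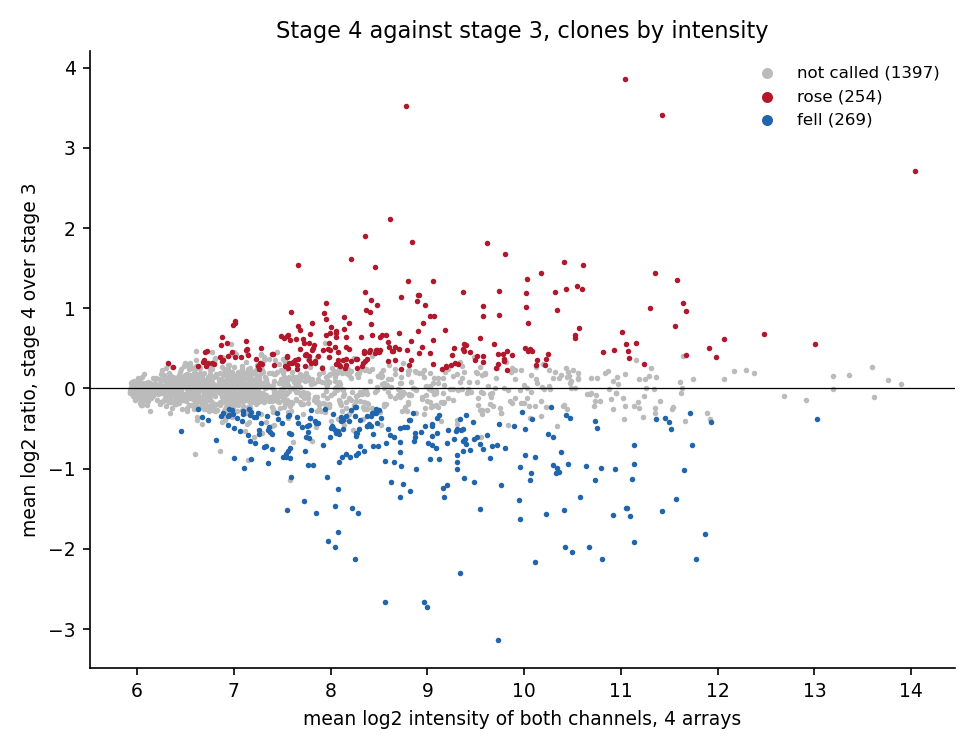
Mean log2 ratio of stage 4 over stage 3 (vertical axis) against the mean log2 intensity of both channels (horizontal axis) for 1920 clones, each a point averaged over 4 arrays. The 254 clones that rose are red, the 269 that fell are blue and the 1397 not called are grey. Most called clones lie within 2-fold, a log2 ratio of 1, on either side of 0.

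The log odds above 0 named in the methods left 140 clones (7.29%), 56 that rose and 84 that fell. The count of 523 at an adjusted p below 0.05 depended on single arrays. It was 238 without replicate 2, 193 without replicate 3, 329 without replicate 4 and 589 without replicate 1. None of the 523 clones turned its sign. For the 521 with the same sign on all 4 arrays this was fixed in advance. Among the changed clones the SD over the 4 arrays had a median of 0.22 and the half-width of the 95% confidence interval a median of 0.24 on the log2 scale.

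The size of the changes differed between arrays. The median log2 ratio of the clones that rose was 0.33, 0.52, 0.51 and 0.63 on replicates 1 to 4, and that of the clones that fell was -0.47, -0.65, -0.59 and -0.68. Replicate 1 gave the smallest and replicate 4 the largest median in both directions. Stage 4 was labelled with Cy3 on replicates 1 and 3 and with Cy5 on replicates 2 and 4. A term for the dye was past an adjusted p of 0.05 at 0 clones (limma, smallest adjusted p 0.253), with 163 clones at an unadjusted p below 0.05. The dye coefficients had an SD of 0.16 over clones, against 0.48 for the stage coefficients.

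The largest rises among the called clones belonged to Myt01-016G08 and Myt01-017E01. Myt01-016G08 had net intensities of 2860.5, 8862, 9017.5 and 24568.5 in the stage 4 channel and 732.5, 217, 927 and 307.5 in the stage 3 channel, and was above background in every channel. The log2 ratios were 1.93, 4.59, 3.62 and 5.30. The mean rise was 3.86 (SE 0.51, SD 1.46, n = 4; 14.5-fold; 95% confidence interval 2.64 to 5.08; limma adjusted p = 0.00438).

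Myt01-017E01 had net intensities of 410.5, 1507, 1677 and 3917 for stage 4 and 73.5, 30.5, 163 and 66.5 for stage 3. The stage 3 channel was above background on 1 of 4 arrays only, so the fold rests mostly on stage 3 values at background level. Its log2 ratios were 1.91, 3.92, 3.60 and 4.66, with a mean of 3.52 (SE 0.40, SD 1.16, n = 4; 11.5-fold; 95% confidence interval 2.54 to 4.50; limma adjusted p = 0.00292). For both clones replicate 1 gave the lowest and replicate 4 the highest ratio. A model of all 16 arrays as a loop gave smaller rises, of 2.81 for Myt01-016G08 and 2.62 for Myt01-017E01, and of 2.16 and 2.06 with the replicate number as a block. With no background correction they were 3.18 and 2.30, and with scaling between arrays 3.21 and 2.94. Myt01-016F03, which was singled out after its value had been seen, lay close behind at 3.41, so no order between it and Myt01-017E01 is given.

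The deepest mean falls among the called clones belonged to Myt01-003D11 and Myt01-003B07. Myt01-003D11 had net intensities of 221.5, 370.5, 275 and 96.5 in the stage 4 channel and 731.5, 2882, 4149 and 4679.5 in the stage 3 channel, above background in every channel. Its log2 ratios were -1.65, -2.93, -2.96 and -4.99, with a mean of -3.13 (SE 0.48, SD 1.38, n = 4; 8.77-fold lower; 95% confidence interval -4.29 to -1.97; limma adjusted p = 0.00743). Myt01-003B07, from the same plate of the clone library, had 127.5, 220.5, 154.5 and 76 for stage 4, above background on 3 arrays, and 334, 1655.5, 1804.5 and 2764 for stage 3. Its log2 ratios of -1.17, -2.74, -2.51 and -4.47 had a mean of -2.72 (SE 0.47, SD 1.35, n = 4; 6.60-fold lower; 95% confidence interval -3.86 to -1.58; limma adjusted p = 0.00975). Without replicate 3 this clone was no longer called (-2.79, limma adjusted p = 0.0559). The falls of Myt01-003D11 and Myt01-003B07 were -2.47 and -1.96 with no background correction, and -2.51 and -2.14 without replicate 4. Myt01-003G11 and Myt01-001G02, singled out after their values had been seen, lay close behind at -2.66 each. No order between them and Myt01-003B07 is given.

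On the arrays of the other stages the clones that rose and those that fell behaved in different ways. For Myt01-016G08 the log2 ratio was -0.08 ± 0.41 on the Stage4/Stage1 arrays, -0.12 ± 0.11 on the Stage3/Stage2 arrays and 0.37 ± 0.24 on the Stage2/Stage1 arrays (mean ± SD, n = 4 each). For Myt01-017E01 it was 0.00 ± 0.46, -0.03 ± 0.17 and 0.12 ± 0.27 on the same arrays. Myt01-016G08 was above background in both channels of all Stage4/Stage1 and Stage3/Stage2 arrays. In contrast, Myt01-017E01 was above background in neither channel of any Stage2/Stage1 array and on 2 of 4 Stage4/Stage1 arrays in each channel, so its ratios near 0 there do not show equal levels. For Myt01-003D11 the log2 ratio was 0.15 ± 0.15 on the Stage4/Stage1 arrays, 2.50 ± 1.41 on the Stage3/Stage2 arrays and 1.52 ± 1.46 on the Stage2/Stage1 arrays. Myt01-003B07 gave 0.12 ± 0.20, 2.44 ± 1.34 and 1.29 ± 1.04. Both clones were higher in stage 3 than in stage 2 on all 4 arrays, with both channels above background. On the Stage4/Stage1 arrays Myt01-003D11 was above background on 2 of 4 arrays for stage 4 and 1 for stage 1, and Myt01-003B07 on 1 for each, so the levels of stages 4 and 1 could not be compared at this signal. The stage 1 channel of the Stage2/Stage1 arrays was above background for neither clone.

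**Figure D2:**
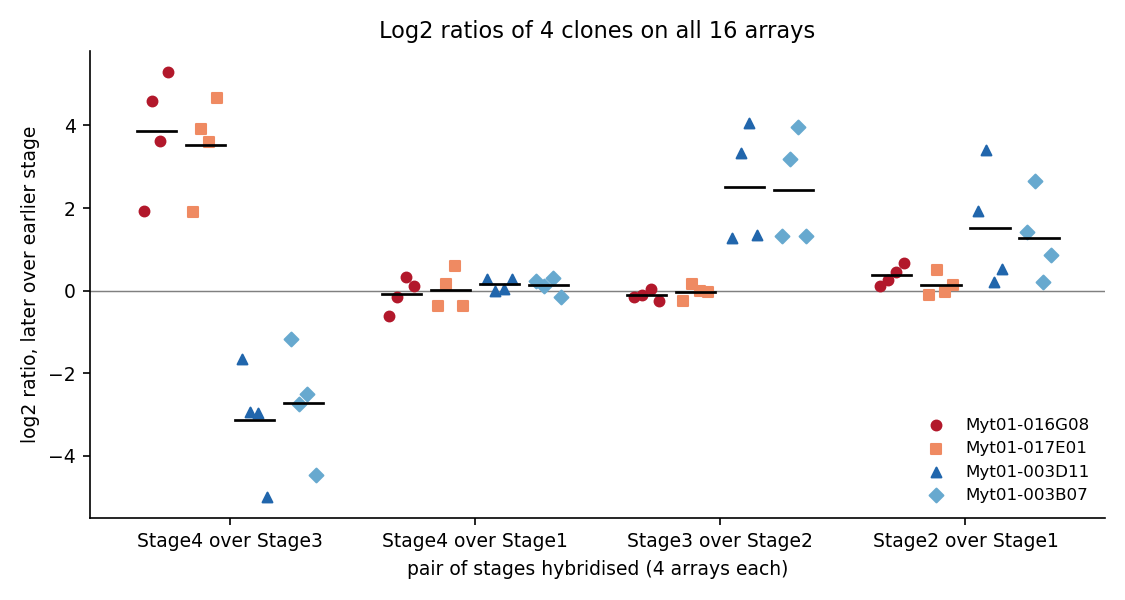
Log2 ratio of the later over the earlier stage (vertical axis) for 4 clones on all 16 arrays, by the pair of stages hybridised (horizontal axis, 4 arrays per pair). Each symbol is 1 array, in replicate order from left to right, and each bar is the mean of 4. The 2 clones that rose lie above 1.9 at Stage4/Stage3 and between -0.62 and 0.67 elsewhere, while the 2 that fell lie above 1.2 at Stage3/Stage2.

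The level of Myt01-016G08 was not the same in arrays that shared a stage. Its net intensity in the stage 4 channel was 693 to 5967.5 on the Stage4/Stage1 arrays, and the stage 1 channel of those arrays gave 618.5 to 5425. In contrast, the stage 1 channel of the Stage2/Stage1 arrays gave 87 to 304. These are raw values, not normalised between arrays. Whether these channels held RNA of the same animals is not given in the labels.

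The clones most like these were taken as those whose log2 ratios correlated with theirs above 0.95 over the 16 arrays, as a description, since the points share arrays and, possibly, animals. There were 3 such clones for Myt01-016G08 and 4 for Myt01-017E01, and the 2 correlated with each other at 0.985. Myt01-003D11 had 21 such clones, 8 of them from its own plate, and Myt01-003B07 had 22, 9 of them from its own plate. All of these clones had also changed in the same direction on the Stage4/Stage3 arrays. These arrays are among the 16, so this is not independent of the correlation. Over all 1920 clones 13.2% rose and 14% fell, and a plate holds 96 of them.

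How often a clone was called varied with its signal. Of the 613 clones above background for both stages on all 4 arrays, 304 changed (49.6%), with 130 that rose and 174 that fell. Of the 577 clones seen for both stages, but not on all arrays, 176 changed (30.5%). Another 184 clones were above background for stage 4 on at least 1 array and for stage 3 on none. Of these, 23 changed (12.5%), with 22 that rose and 1 that fell. For the 22 that rose the ratio is given as a bound. It exceeded 1-fold for 17 of the 22, with a median bound among these 17 of 1.19-fold higher and a highest of 2.79-fold. Of the 42 clones above background for stage 3 only, 14 fell (33.3%), with a median bound of 1.40-fold lower and a highest of 1.90-fold. Both groups were set on the same arrays as the calls. This favours rises among clones seen for stage 4 only and falls among those seen for stage 3 only. The directions are therefore no separate result. The bounds set the mean of the bright channel against, on each array, the lowest signal among clones well above background or the dim channel's own signal where that was higher, on normalised log2 values. Of the 504 clones above background for neither stage, 6 were called (1.19%), with no bound on either side.

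Clones that fell and clones that rose came in unlike proportions from the plates of the clone library. The clones are numbered by 20 plates of 96. Plates 001 to 003 held 80 clones that fell and 22 that rose of 288, and plates 015 to 017 held 38 that fell and 69 that rose of 288. Plate 003 was the most one-sided, with 34 clones that fell and 2 that rose, and 10 of its falls exceeded 2-fold. In contrast, plate 017 held 7 clones that fell and 24 that rose. The median log2 ratio of all clones of a plate reached from -0.17 on plate 003 to 0.08 on plate 017. Plate 020 held 0 called clones, and 89 of its 96 clones were above background on no array. The array is known to hold probes from tissue-specific libraries, but which plate came from which tissue is not given in the sources used here. These plates were picked after their counts had been seen. In the 16 print blocks of the slide, 21 to 41 of the 120 clones of each block were called in either direction. Loess within each print tip centres each block by itself, so the blocks give no comparison for the balance of rises and falls.

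**Figure D3:**
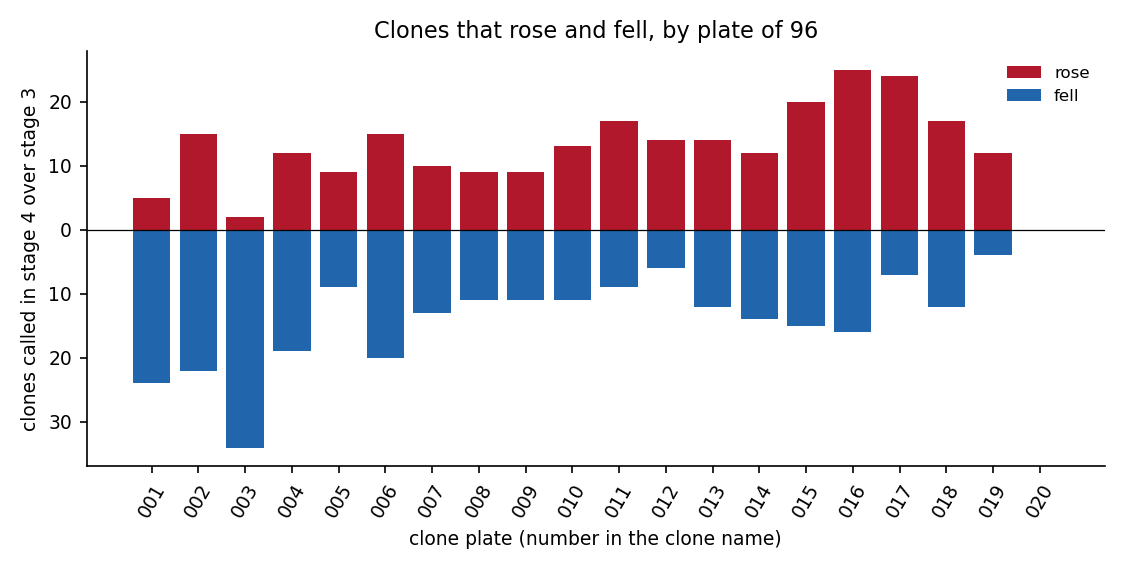
Number of clones that rose (red, upward) and fell (blue, downward) in stage 4 over stage 3, for each plate of 96 clones in the order of the clone names. Plate 003 has 34 falls and 2 rises, plate 017 has 7 falls and 24 rises, and plate 020 has no bar.

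The change between stages 3 and 4 was also reached by another route, from the 12 arrays that did not carry both stages: Stage4/Stage1 minus Stage2/Stage1 minus Stage3/Stage2. If all arrays of a stage measured the same levels, the direct and the indirect ratio would be equal within their errors. They differed at 225 of 1920 clones (11.7%, limma adjusted p below 0.05), with the direct ratio above the indirect ratio at 107 and below it at 118. Among the 254 clones that rose the routes differed at 69, and among the 269 that fell at 84, against 72 of the 1397 clones not called. The direct ratio enters both the call and the difference, so these shares are not independent of it. The indirect ratio had a median of 0.11 over the clones that rose, -0.34 over those that fell and 0.05 over all clones.

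The routes gave different ratios for the 2 clones that rose most, while no difference was called for the 2 that fell most. For Myt01-016G08 the indirect ratio was -0.34 (SE 0.58), and the difference of 4.20 from the direct ratio was past the threshold (limma adjusted p = 0.000469). For Myt01-017E01 the indirect ratio was -0.09 (SE 0.49), with a difference of 3.61 (limma adjusted p = 0.000405). The indirect ratio of Myt01-003D11 was -3.87 (SE 0.93) and that of Myt01-003B07 was -3.61 (SE 0.82). Their differences of 0.74 and 0.88 missed the threshold (limma adjusted p = 0.736 and 0.632), which does not show that the routes were equal. The indirect ratios of Myt01-017E01, Myt01-003D11 and Myt01-003B07 include the channels at background level named above, which limits them as measurements.

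**Figure D4:**
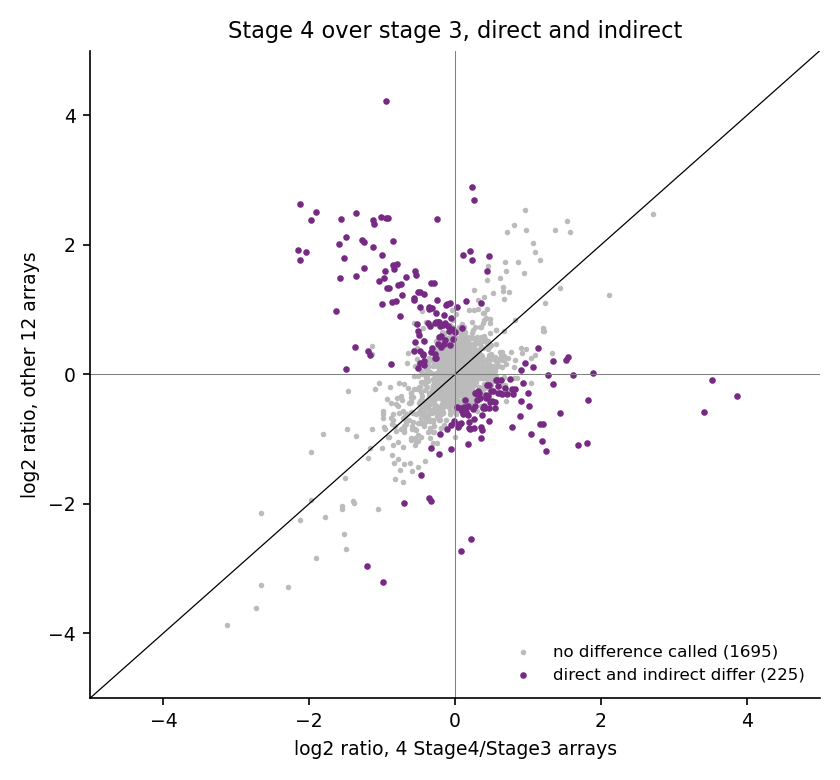
Log2 ratio of stage 4 over stage 3 from the 4 Stage4/Stage3 arrays (horizontal axis) and from the other 12 arrays (vertical axis), each point a clone. The line marks equal values, and the 225 clones whose ratios differed are purple. Many purple clones lie at the upper left, where the direct ratio is below 0 and the indirect ratio above it.

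The clones that changed beyond 2-fold on the direct arrays showed unlike patterns on the other arrays, given here as a description of clones grouped by the test above. Of the 58 that fell, 29 had no difference called between the routes, with indirect ratios from -3.87 to 0.44. A missed threshold does not show equal ratios for these 29. Their median log2 ratio was -1.51 in stage 4 over stage 3, 0.07 in stage 4 over stage 1, 1.48 in stage 3 over stage 2 and 0.53 in stage 2 over stage 1. The mean ratio was above 0 at Stage3/Stage2 for 26 of the 29 and at Stage2/Stage1 for 27 of the 29. The grouping favours such signs. With stage 4 over stage 1 near 0, an indirect fall needs a net rise from stage 1 to stage 3. These signs are therefore no separate support for a peak at the ripe stage. Plates 001 to 003, which hold 288 of the 1920 clones, gave 15 of the 29.

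A further 28 clones that fell had a direct ratio below the indirect one, and Myt01-011E02, named here because it alone was left, had a direct ratio of -1.20 above its indirect ratio of -2.96. Their medians were -1.37 in stage 4 over stage 3, -0.16 in stage 4 over stage 1, -1.92 in stage 3 over stage 2 and -0.18 in stage 2 over stage 1. All 28 were below 0 in stage 4 over stage 3 and also in stage 3 over stage 2. The grouping favours this sign as well, since a lower ratio of stage 3 over stage 2 raises the indirect ratio. It is therefore no separate support for a fall at both steps. Single clones reached from -0.51 to 0.11 in stage 4 over stage 1 and from -0.56 to 1.18 in stage 2 over stage 1. The indirect ratio of these clones had a median of 1.91. None of the 28 came from plates 001 to 003, and 26 of them were above background for both stages on all 4 direct arrays.

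Of the 39 clones that rose beyond 2-fold, 22 had a direct ratio above the indirect one. Their medians were 1.39 in stage 4 over stage 3, -0.04 in stage 4 over stage 1, -0.02 in stage 3 over stage 2 and 0.15 in stage 2 over stage 1. These medians cover clones that went both ways, from -2.45 to 0.94 in stage 3 over stage 2 and from -0.17 to 3.47 in stage 2 over stage 1, while stage 4 over stage 1 reached from -0.18 to 0.06. The other 17 clones that rose had medians of 1.21 in stage 4 over stage 3, 0.34 in stage 4 over stage 1, 0.01 in stage 3 over stage 2 and -0.89 in stage 2 over stage 1. No difference between the routes was called for these 17, whose indirect ratio had a median of 1.22 and reached from -0.14 to 2.47.

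**Figure D5:**
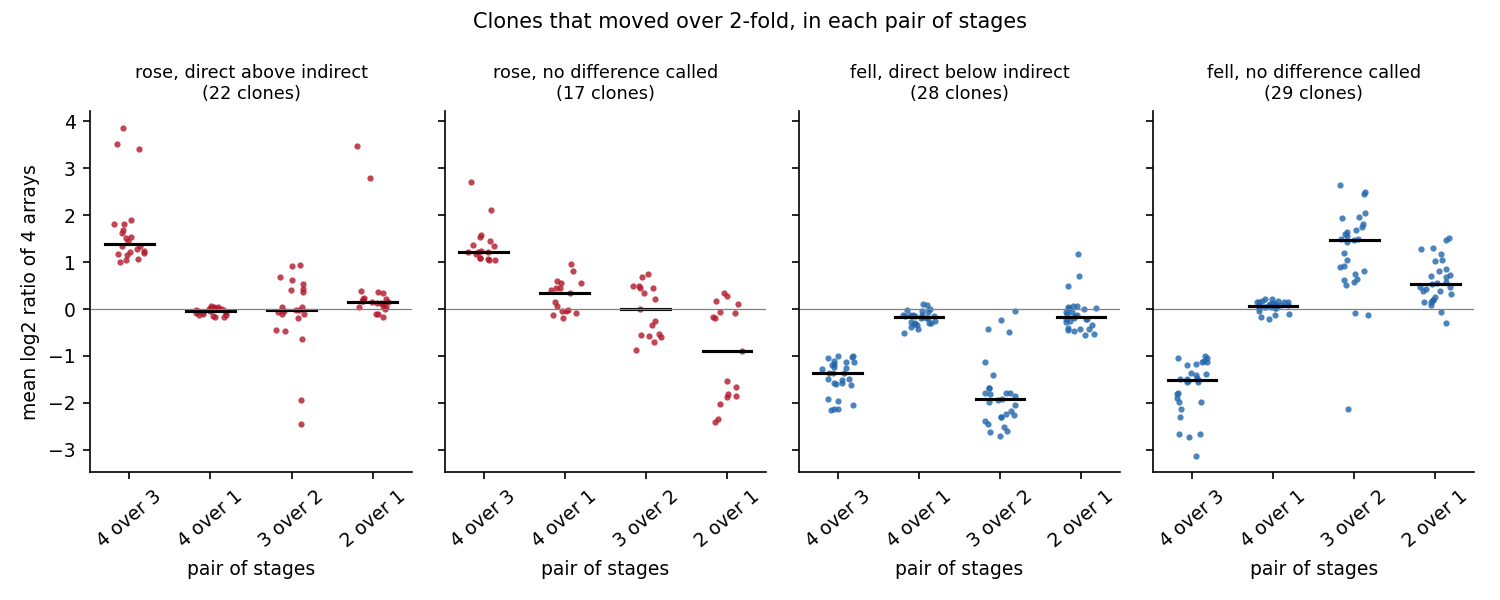
Mean log2 ratio of 4 arrays (vertical axis) in each pair of stages (horizontal axis) for clones that changed beyond 2-fold in stage 4 over stage 3, each point a clone and each bar the median. Panels hold the clones that rose (red) and fell (blue), split by whether a difference between the direct and indirect ratios was called. The 28 falls of the third panel are also below 0 at stage 3 over stage 2, a sign that the grouping favours. Myt01-011E02 is not drawn.

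Fitted alone, each pair of stages gave another number of changed clones from its 4 arrays. Stage4/Stage3 gave 523, Stage3/Stage2 gave 449 (23.4%) and Stage2/Stage1 gave 34 (1.77%). Stage4/Stage1 gave 0. The clones at an unadjusted p below 0.05 (limma) were 750, 681, 343 and 32 of 1920 for Stage4/Stage3, Stage3/Stage2, Stage2/Stage1 and Stage4/Stage1. Over clones, mean log2 ratios had an SD of 0.48 for Stage4/Stage3, 0.50 for Stage3/Stage2, 0.36 for Stage2/Stage1 and 0.12 for Stage4/Stage1. The median residual SD was 0.17, 0.21, 0.21 and 0.16 for these pairs.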

How the data were processed

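The authors scanned the slides, quantified the images with GenePix and deposited the raw intensity of each spot and its local background in both dyes. They also deposited a table of log2 ratios per spot, made with limma by offset background subtraction and loess per the methods. For the Stage4/Stage3 arrays it was set against ratios per spot computed here with loess over the whole array, not within each print tip. Its columns correlated with these at 0.982 to 0.999, with slopes of 0.965 to 0.999. The medians of its columns were -0.0072 to 0.02, so its scale, centring and direction were settled. It served as an alternative only.

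Foreground means and background medians were corrected by normexp (offset 50) and normalised by loess within each print tip with limma 3.58.1 under R 4.3.3, with weight 0 for blank and alignment spots. Each ratio was turned to stage 4 over stage 3 from the dyes in the labels, and the 2 spots of a clone were averaged. Groups came from the sample titles. The 4 direct arrays were fitted alone (lmFit, eBayes, 3 residual degrees of freedom, prior 3.32), two-sided, with Benjamini-Hochberg adjustment over 1920 clones and a threshold of 0.05. The indirect route used a fit over 16 arrays with a mean for each pair of stages (12 residual degrees of freedom). On the 4 direct arrays no clone spot had a mean intensity at the scanner limit (highest 53704 of 65535). Single pixels and the other arrays were not checked for saturation. The number of arrays limits the precision. The labels give biological replicates from single individuals, but not which animals recur, so p-values measure the spread between arrays. The fit was tested on simulated data.

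The clones, lists and tests were chosen with earlier results of these data known. No table used here pairs clones with genes, so the gene lists could not be applied, and the named clones are the 2 that rose and the 2 that fell with the largest mean log2 ratio among called clones with the same sign on all 4 arrays. Alternatives covered background, normalisation, spot filter, duplicates, dye term, moderation, the threshold, the deposited table, the whole loop and leaving out each array. Figures were drawn with matplotlib 3.10.9.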

Additional observations from a re-analysis of the deposited data

Results flagged for a closer look

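Replicate 1 of the Stage4/Stage3 arrays lay apart from the others in its mean correlation with them, 0.683 against 0.775 to 0.781. Of 25 sets of 4 values examined in this way, chance sets about 1 in 20 apart.

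The direct ratio of stage 4 over stage 3 exceeded the ratio from the other 12 arrays by 4.20 on the log2 scale for Myt01-016G08 and by 3.61 for Myt01-017E01, each by a test of the difference itself. Part of the channels of Myt01-017E01 on the other arrays lay at background level.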

How the results depend on the processing

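The 523 changed clones became 140 at a log odds above 0, 298 with no background correction, 287 with median centring in place of loess, and 193 to 589 on leaving out 1 array. The cause was not tested. The 225 clones at which the routes differed became 128 with median centring and 177 to 241 on leaving out 1 direct array. The clones with a dye effect, 0 after loess, became 178 with median centring and 0 to 1 on leaving out 1 array. The other counts stayed within 1.5 times the main one, such as 518 with plain subtraction, 476 with loess over the array, 550 with scaling between arrays, 488 from the deposited table and 520 of 1067 clones with dim clones left out. The 4 named clones kept their direction in every setting, though not their size (2.16 to 4.50 for Myt01-016G08, 2.06 to 4.06 for Myt01-017E01, -3.63 to -2.47 for Myt01-003D11 and -3.24 to -1.96 for Myt01-003B07), and 62 of 64 values stayed past the threshold. The exceptions were both of Myt01-003B07, with no background correction (-1.96, limma adjusted p = 0.0515) and without replicate 3 (-2.79, adjusted p = 0.0559).

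A model of the whole loop of 16 arrays called 462 clones, 357 of them among the 523, and 408 with the replicate number as a block. The correlations of deviations between arrays of the same number were -0.13 to 0.20 for number 1, -0.24 to 0.26 for number 2, -0.04 to 0.25 for number 3 and 0.11 to 0.32 for number 4. Of the 16 arrays, 8 correlated best with an array of their own number. This is more than an even choice would give, as most other arrays carry another number. Pairing was not taken as shown, since not every pair was above 0.1, and shared animals under some numbers cannot be told from these values. Dim spots limit the depth of the data: 504 clones were above background on none of the 4 direct arrays, and their ratios carry no order.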
